A study of Rattus norvegicus with 12 samples.

Results

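The genes described here encode the proteasome, the protease complex that degrades ubiquitin-tagged proteins, together with its activators and the chaperones that assemble it. They were taken as the genes whose symbol starts with Psma, Psmb, Psmc, Psmd, Psme or Psmg and that have a probe set naming them alone, without Psmb8 and Psmb9. For each gene the probe set with the highest mean was used. The rule gave 43 of the 12853 genes measured, of which 41 are subunits, activators or chaperones and 2, Psmc3ip and Psme3ip1, only carry the prefix. RNA came from cells of rat bronchoalveolar lavage fluid (BALF), the fluid washed out of the airways, and was hybridised to 12 Affymetrix arrays. The animals were 8-week-old Sprague-Dawley rats, male by the labels, of 200 ± 20 g, and all were without food and water during the experiment. CTL rats received saline by tail vein, and LPS rats received 0.5 mg/kg of lipopolysaccharide, a component of the wall of Gram-negative bacteria, by the same route, and both groups breathed normal air. HPO rats stayed for 6 h in a decompression chamber at 405.35 mmHg (5000 m of altitude, 11.2% oxygen), and COMB rats received LPS and then entered the chamber. Each group had 3 arrays, and each array held RNA pooled from several rats. The pools are called CTL-a (rat numbers 1, 3, 4), CTL-b (5, 6, 7), CTL-c (8, 9, 10), LPS-a (2, 3, 6), LPS-b (5, 7, 11), LPS-c (8, 9, 10), HPO-a (7, 8, 9), HPO-b (2, 4, 11), HPO-c (3, 5, 12), COMB-a (2, 3), COMB-b (10, 11) and COMB-c (12, 13, 14). The titles spell the last group COMP, and COMB-a and COMB-b list 2 rat numbers where the study describes pools of 3. Values for single pools follow the order a, b, c.

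The proteasome has a barrel-shaped core particle, in which outer rings of alpha subunits (Psma genes) form the gate and inner rings of beta subunits (Psmb genes) hold the catalytic sites. A regulatory particle caps the core: ATPases of its base (Psmc genes) unfold the substrate, while other base subunits and a lid (Psmd genes) bind and remove ubiquitin. Interferon-gamma is known to induce alternative catalytic beta subunits, among them Psmb10, and the activator subunits Psme1 and Psme2, and the core that carries them, the immunoproteasome, produces peptides for MHC class I. In the lung, alveolar macrophages are the main cells of lavage fluid, and neutrophils and monocytes join them during inflammation.

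Promoter sequences are shown for the members whose intensity rose most under both exposures and that have an entry in the RefSeq table, and for Psme1, the partner of Psme2. Each line gives the 250 bases before the start in the promoter table, on the strand of the gene (GRCr8, the RefSeq assembly used here). Capitals mark matches to the motifs searched on both strands. The motifs were TGACNNNGC (antioxidant response element core), GAAANNGAA (interferon-stimulated response element core), TTCNNNGAA (gamma-activated site) and CCAAT. The windows lie at chr15:33052752-33053001 on the minus strand for Psme2, chr19:50743293-50743542 on the minus strand for Psmb10, chr15:33038721-33038970 on the plus strand for Psme1 and chr2:198584255-198584504 on the plus strand for Psma5. The windows were placed by the start given in the promoter table. That of Psme2 lies wholly inside the annotated span of the gene (chr15:33048452-33053055). The annotated spans of Psme1 and Psma5 reach into the ends of their windows.
Psme2: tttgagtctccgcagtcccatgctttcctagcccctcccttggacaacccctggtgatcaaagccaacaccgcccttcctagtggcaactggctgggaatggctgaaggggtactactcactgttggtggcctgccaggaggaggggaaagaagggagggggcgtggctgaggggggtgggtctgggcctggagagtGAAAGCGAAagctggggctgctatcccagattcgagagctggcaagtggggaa
Psmb10: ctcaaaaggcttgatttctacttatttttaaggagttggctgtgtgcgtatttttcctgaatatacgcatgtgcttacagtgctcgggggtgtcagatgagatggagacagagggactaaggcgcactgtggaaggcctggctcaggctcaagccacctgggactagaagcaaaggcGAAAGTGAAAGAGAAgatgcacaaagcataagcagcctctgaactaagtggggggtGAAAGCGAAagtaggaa
Psme1: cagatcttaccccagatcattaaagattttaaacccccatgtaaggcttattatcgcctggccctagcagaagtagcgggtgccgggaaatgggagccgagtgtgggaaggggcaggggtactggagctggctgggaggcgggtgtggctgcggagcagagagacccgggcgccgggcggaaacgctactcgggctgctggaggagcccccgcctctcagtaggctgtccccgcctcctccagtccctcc
Psma5: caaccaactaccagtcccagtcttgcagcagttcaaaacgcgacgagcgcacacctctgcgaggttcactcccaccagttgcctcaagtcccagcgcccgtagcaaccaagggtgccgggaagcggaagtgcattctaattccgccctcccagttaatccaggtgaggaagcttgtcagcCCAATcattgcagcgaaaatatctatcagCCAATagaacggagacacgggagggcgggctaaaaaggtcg
GAAANNGAA was found 1 time in the Psme2 window, starting 53 bases from the start in the promoter table. It was found 3 times in the Psmb10 window, starting 73, 67 and 17 bases away, where the first pair overlap. The Psme1 window held none of the 4 motifs, and the Psma5 window held CCAAT 2 times. Of the 43 genes, 39 had an entry. GAAANNGAA was in 7 of the 39 windows (17.95%), against 8.118% of all 33469 promoters. The other windows with it were those of Psma4, Psmb2, Psmb3, Psmd7 and Psmd11. CCAAT was in 19 windows (48.72%, against 34.02% of all), including 5 of the 6 alpha ring windows. TGACNNNGC was in 6 (15.38%, against 10.08%), and TTCNNNGAA was in 3 (7.692%, against 7.667%). A match describes the letters and is no evidence of binding.

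The deposited intensities are on a linear scale. The median of an array lay between 32.72 and 35.61, and each of the 43 members was above the 20th percentile of its array on all 12 arrays. Fold changes are on the scale of log2(intensity + 1), from a limma fit of the 4 group means to all 25692 probe sets tested. A gene is called higher or lower at an adjusted p (limma, Benjamini-Hochberg over these probe sets) under 0.05. The p-values set the difference between group means against how far pools of the same group lie apart, estimated over all 4 groups. That spread may be in part technical, and with 3 pools a group the precision is limited. In RNA from mixed cells, fewer cells of a type and less RNA per cell cannot be told apart. Of the marker lists for cell types, airway epithelium had the most calls: the summed intensity of its 12 markers was 6899 to 9462 in CTL, 14225 to 15860 in LPS, 14703 to 16040 in HPO and 21283 to 27877 in COMB, and all 12 were called higher in COMB than in CTL. The 8 neutrophil markers summed to 521 to 3409 in CTL, 1419 to 2144 in LPS, 357 to 543 in HPO and 3759 to 9606 in COMB (4 called higher and 1 lower in COMB than in CTL). The 9 T and NK cell markers summed to 331 to 2679 in CTL and 887 to 6869 in COMB (2 called higher). The 7 alveolar macrophage markers summed to 18042 to 19620 in CTL and 16201 to 17812 in COMB (1 called higher and 2 lower). Of the other lists, 3 of 5 monocyte, 5 of 9 alveolar epithelium, 0 of 3 B cell and 1 of 6 erythrocyte and platelet markers were called higher in COMB than in CTL by limma. No marker of any list was under the 20th percentile on all arrays. The part of these cell types in the results below was not tested.

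**Figure D1:**
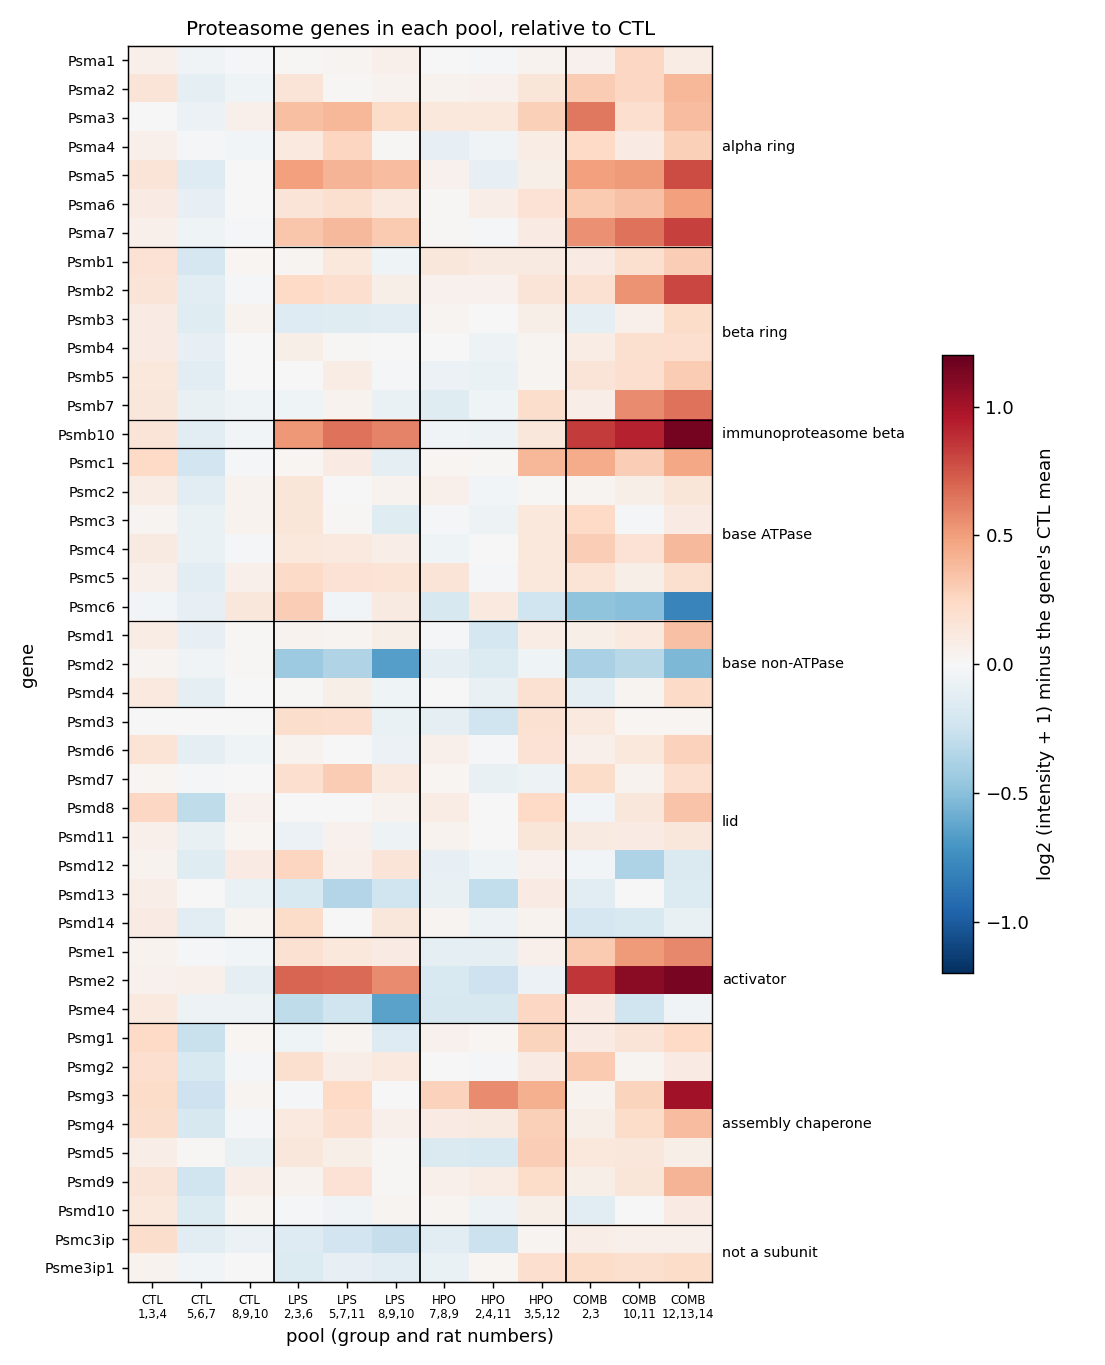
Each row is 1 of the 43 genes, grouped by its place in the proteasome, and each column is 1 of the 12 pools, named by group and rat numbers; colour gives log2(intensity + 1) minus the mean of the gene over the 3 CTL pools, from blue (lower) to red (higher). Psme2 and Psmb10 have the highest means over the 3 pools in LPS and in COMB, and Psmc6 and Psmd2 the lowest in COMB.

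Setting COMB against CTL asks what LPS and hypoxia did together. Genes of the core and of the interferon-inducible activator were called higher (7 of 14 and 2 of 2). Of the 17 genes of the cap, 14 were not called, near the share over all genes (10028 of 12853). Over all classes, 10 of the 43 members were called higher and 2 lower, where 11.0% of all genes were called higher and 11.0% lower. The median log2 fold change of the members was 0.16, with 36 of 43 above 0, while the median of all genes was -0.03. Of the 17 genes of the regulatory particle 1 was higher and 2 were lower. Centring each array on its median shifts every gene by -0.07 in this comparison, and the members' median was then 0.10 with 33 above 0. The calls on Psmb2, Psma2 and Psmc4 were lost with that centring (adjusted p = 0.0549, 0.0981 and 0.129).

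Psme1 and Psme2 encode the subunits that together form the interferon-inducible activator ring, which opens the core without ubiquitin or ATP. They are neighbours, at chr15:33038962-33041849 and chr15:33048452-33053055 (GRCr8), with 6602 bases between them. The intensity of Psme2 was 1057, 1062 and 936 in CTL, 1649.6, 1628 and 1509.5 in LPS, 898, 855 and 969.5 in HPO and 1845, 2153 and 2245 in COMB. Every LPS and COMB pool was above every CTL and HPO pool, and the COMB pools were above the LPS pools. Psme2 rose by 104% in COMB against CTL (log2 fold change 1.03, SE 0.10, adjusted p = 6.30e-05), the highest value among the 43 genes. Psme1 was at 2478, 2386 and 2348 in CTL, 2730.5, 2620.5 and 2567 in LPS, 2223, 2220.5 and 2508 in HPO and 2993, 3423 and 3585 in COMB. The COMB pools of Psme1 lay above all others, and LPS pools lay above the CTL pools by less than the test requires (log2 fold change 0.13, SE 0.09, adjusted p = 0.582). In COMB against CTL Psme1 rose by 38.3% (log2 fold change 0.47, SE 0.09, adjusted p = 0.00451). A second, dim probe set of Psme1 went the other way without passing the test (log2 fold change -0.23, adjusted p = 0.344), and with the mean of both probe sets the call was lost (adjusted p = 0.379). Psme4, a nuclear activator linked to the turnover of acetylated histones, was at 523, 465 and 465 in CTL, 392, 410.1 and 309.6 in LPS, 423, 423 and 576 in HPO and 517, 410.3 and 468 in COMB, and its COMB pools overlapped the CTL pools (log2 fold change -0.06, SE 0.15, adjusted p = 0.819). The 4 probe sets of Psme3, another nuclear activator, also name Aoc3 and G6pc1, and no value is given for it.

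**Figure D2:**
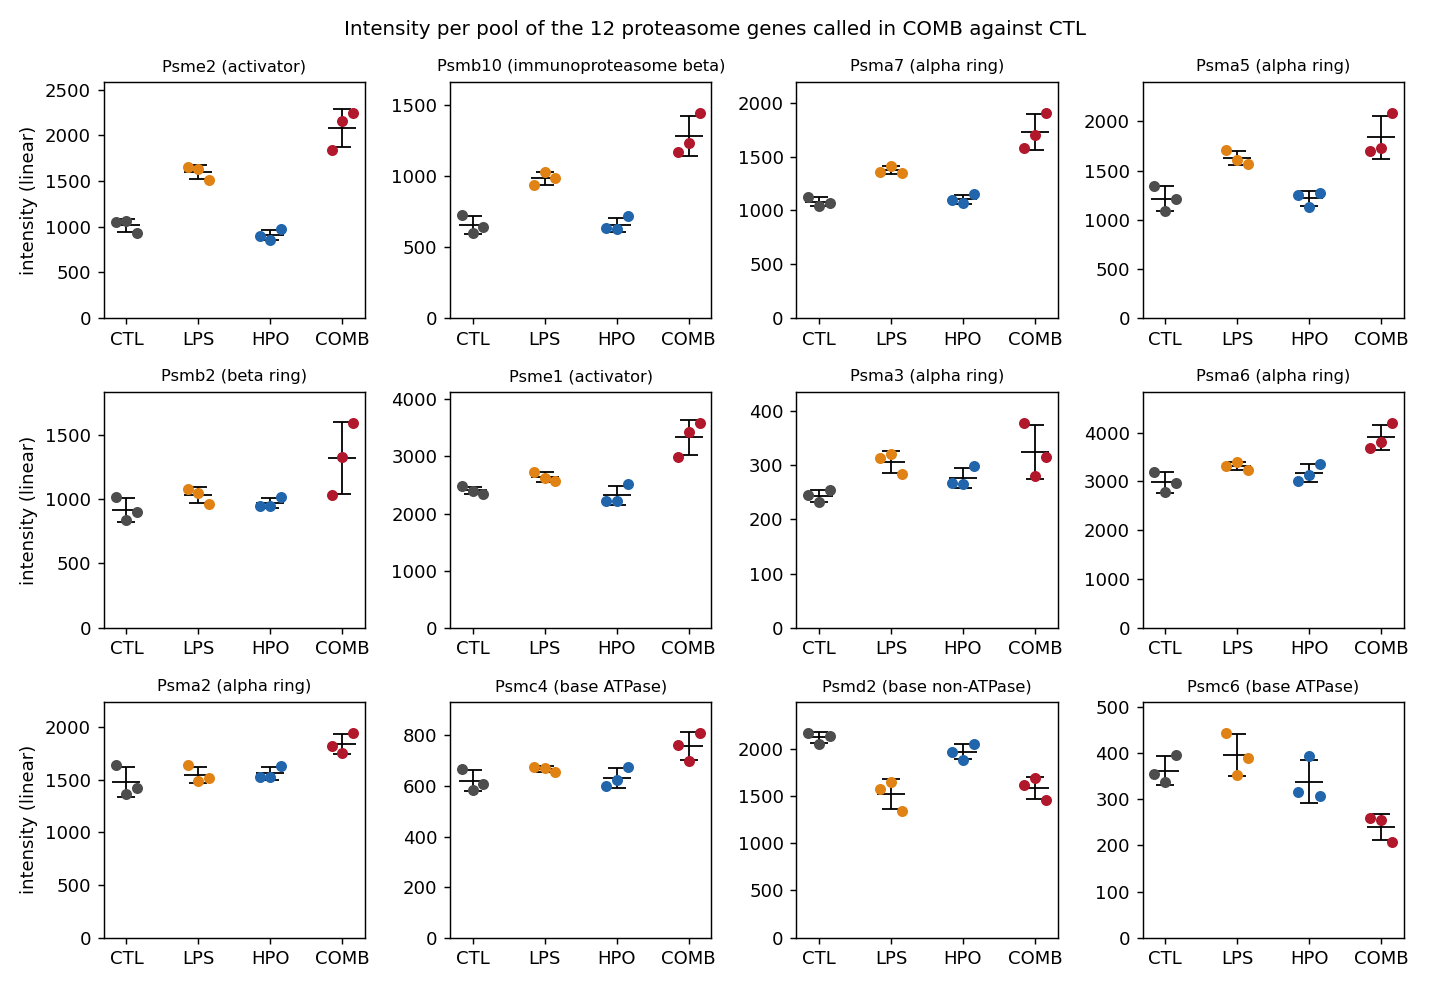
Intensity (linear, from 0) of the 12 genes called in COMB against CTL in each of the 12 pools, 1 panel a gene; points are pools in the order of the text, and the horizontal bars with whiskers are the mean ± SD of the 3 pools of a group. The LPS pools of Psme2, Psmb10, Psma7 and Psma5 lie between the CTL and the COMB pools or level with the latter, and those of Psmd2 lie level with the COMB pools.

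Psmb10 replaces the constitutive catalytic subunit Psmb7 in the immunoproteasome. It lies at chr19:50740808-50743292 and was at 726, 598 and 638 in CTL, 936, 1027 and 987 in LPS, 633, 624 and 716 in HPO and 1168, 1236 and 1444 in COMB. As for Psme2, its LPS pools were above the CTL pools and its COMB pools above the LPS pools, while HPO pools overlapped CTL. The rise in COMB against CTL was 95.8% (log2 fold change 0.97, SE 0.11, adjusted p = 1.44e-04). Psmb7 was at 836, 711 and 733 in CTL and 799, 1122 and 1195 in COMB, and did not pass the test (log2 fold change 0.43, SE 0.15, adjusted p = 0.0617). COMB-a lay within the CTL range, and the other COMB pools lay above it. Within each array, the log2 level of Psmb10 relative to Psmb7, set to 0 at the CTL mean, was 0.57 to 0.68 in LPS, -0.07 to 0.10 in HPO and 0.36 to 0.76 in COMB, against -0.03 to 0.02 in CTL. The corresponding values for Psmb8 relative to Psmb5, the other such pair that could be read, were 0.34 to 0.37 in LPS, -0.20 to -0.10 in HPO and 0.32 to 0.70 in COMB, against -0.15 to 0.15 in CTL. A factor that scales a whole array nearly cancels in these ratios. They were not computed under quantile normalization, which can shift genes of different intensity by different amounts. Psmb8 itself was at 967, 1003 and 977 in CTL, 1265, 1319.5 and 1225 in LPS, 874, 807 and 876 in HPO and 1370.1, 1767 and 1976 in COMB (log2 fold change 0.78, SE 0.12, adjusted p = 9.22e-04 in COMB against CTL), and Psmb9, which replaces Psmb6, was at 774, 978 and 816 in CTL, 1514, 1384 and 1210.4 in LPS, 669, 681 and 661 in HPO and 1466, 1748 and 2208 in COMB (log2 fold change 1.06, SE 0.15, adjusted p = 4.85e-04). The probe set of Psmb6 also names Psmb6l1, so no value is given for that gene.

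**Figure D3:**
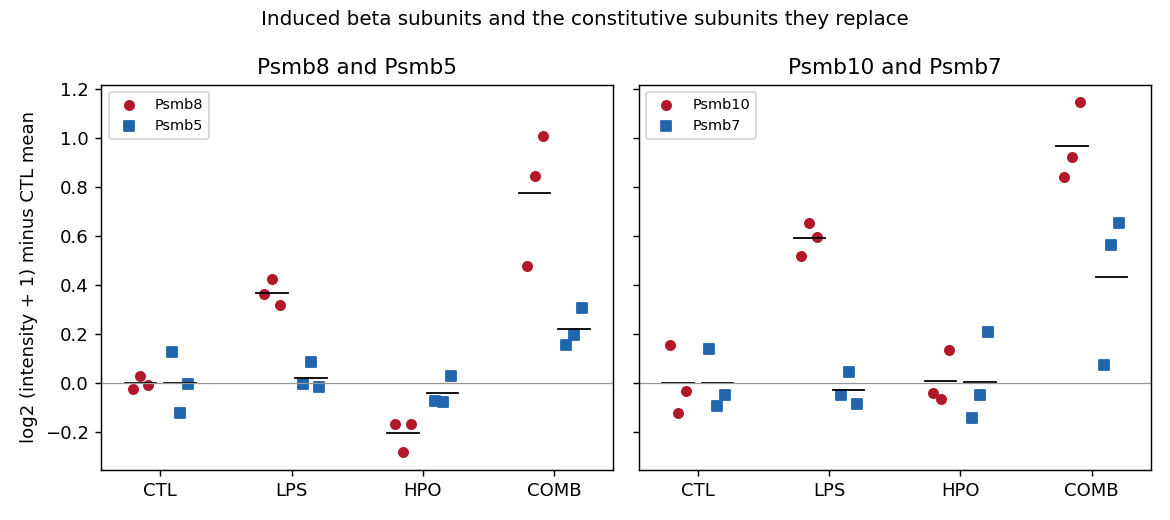
Level of 2 interferon-inducible beta subunits (red circles) and of the constitutive subunits they replace (blue squares) in each pool, as log2(intensity + 1) minus the CTL mean of the gene; black lines are means of 3 pools. In LPS, Psmb8 and Psmb10 lie above 0 in all 3 pools (0.32 to 0.43 and 0.52 to 0.66) while Psmb5 and Psmb7 lie between -0.08 and 0.09.

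The alpha ring gates the entry to the core, and all 7 of its genes had a positive log2 fold change in COMB against CTL (median 0.39), with 5 called. Psma7, at chr3:187514901-187521289, was at 1125, 1045 and 1070.5 in CTL, 1357, 1413 and 1346 in LPS, 1093, 1072 and 1152 in HPO and 1577, 1701 and 1905 in COMB. Its groups stood in the order of Psme2, with the COMB pools above the LPS pools and the LPS pools above CTL, and it rose by 59.5% in COMB (log2 fold change 0.67, SE 0.09, adjusted p = 4.08e-04). Psma5, at chr2:198584502-198607867, was at 1346, 1090.0 and 1208 in CTL, 1705, 1606 and 1564 in LPS, 1254, 1134 and 1270.3 in HPO and 1701, 1726 and 2086 in COMB. For this gene the LPS and COMB pools overlapped, and both lay above CTL and HPO, with a rise of 51.1% in COMB (log2 fold change 0.60, SE 0.11, adjusted p = 0.00283). Psma6 was at 3194, 2774 and 2975 in CTL, 3313, 3390.5 and 3231 in LPS, 3014, 3138 and 3361 in HPO and 3692, 3809.5 and 4197 in COMB, and its COMB pools lay above all others (log2 fold change 0.39, SE 0.09, adjusted p = 0.0108). Psma3 was at 245, 232 and 254 in CTL, 313, 321 and 284 in LPS, 267, 266 and 298 in HPO and 378, 279.9 and 315 in COMB (log2 fold change 0.40, SE 0.11, adjusted p = 0.0279), with its COMB pools above CTL and the highest value in COMB-a. Psma2 was at 1641, 1367 and 1423 in CTL, 1634, 1489 and 1514 in LPS, 1519, 1528 and 1625 in HPO and 1818, 1749 and 1944 in COMB (log2 fold change 0.32, SE 0.09, adjusted p = 0.034), with the COMB pools above all others. Psma4 and Psma1 did not pass (log2 fold changes 0.21 and 0.13, adjusted p = 0.159 and 0.319). The Psma3 call was lost when any 1 of CTL-a, CTL-b, CTL-c, COMB-a and COMB-c was left out (adjusted p 0.0562 to 0.0882). The Psma2 call was lost without CTL-b, CTL-c, COMB-a or COMB-c (0.0594 to 0.121), while Psma5, Psma6 and Psma7 remained called whichever of the 6 pools was left out.

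Among the 6 constitutive genes of the beta ring that could be read, all had a positive log2 fold change in COMB against CTL with the probe set used (0.06 to 0.51) and 1 was called. Psmb2, a structural beta subunit, was at 1016, 837 and 897 in CTL, 1078, 1049.8 and 959 in LPS, 948, 947 and 1016 in HPO and 1036, 1326 and 1593 in COMB (log2 fold change 0.51, SE 0.14, adjusted p = 0.0243). COMB-a was close to CTL-a, the highest CTL pool, and COMB-c was the highest of all. The call was lost without CTL-b, CTL-c, COMB-b or COMB-c (adjusted p 0.0632 to 0.0868). Psmb5, the constitutive chymotrypsin-like subunit, did not pass (log2 fold change 0.22, SE 0.09, adjusted p = 0.116). Its other probe sets, which are dim, were at -0.20 (adjusted p = 0.159) and -0.16 (0.427). Psmb1, Psmb3 and Psmb4 had log2 fold changes between 0.06 and 0.20.

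The base of the cap, the part next to the core, held both members called lower and 1 called higher. Psmd2, at chr11:93752761-93763388, is a large scaffold subunit of the base. Its intensity was 2167, 2049.7 and 2136 in CTL, 1567, 1650.4 and 1337 in LPS, 1968, 1883 and 2048 in HPO and 1618, 1683 and 1457 in COMB. The LPS and COMB pools overlapped and lay below all CTL and HPO pools, and Psmd2 fell by 25.2% in COMB against CTL (log2 fold change -0.42, SE 0.10, adjusted p = 0.0116). Psmc6, an ATPase subunit at chr15:21022314-21043785, was at 354, 337 and 396 in CTL, 444, 352 and 390.1 in LPS, 315, 393 and 306 in HPO and 258, 254 and 208 in COMB. Its COMB pools lay below all other pools, and its LPS and HPO pools overlapped CTL (log2 fold change -0.59, SE 0.13, adjusted p = 0.00834). Its 2 other probe sets, which are less bright, had log2 fold changes of -0.27 (adjusted p = 0.135) and -0.04 (adjusted p = 0.845), so the fall was called with 1 of 3 probe sets. Psmc4, another ATPase subunit, was at 668, 586 and 609 in CTL, 677, 671 and 654 in LPS, 599, 622 and 677 in HPO and 762, 699.5 and 811 in COMB (log2 fold change 0.29, SE 0.09, adjusted p = 0.0485), and this call was lost when any 1 of CTL-a, CTL-b, CTL-c, COMB-a and COMB-c was left out (adjusted p 0.0525 to 0.151) or the mean of its probe sets was used (0.308). Of the other ATPase genes, Psmc1 had the highest log2 fold change (0.40, adjusted p = 0.0626), and Psmc2, Psmc3 and Psmc5 lay between 0.08 and 0.14. Psmd1, the other scaffold subunit, stood at a log2 fold change of 0.18 (adjusted p = 0.275), and Psmd4, a ubiquitin receptor, at 0.05 (adjusted p = 0.785).

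None of the 8 lid genes and none of the 7 chaperone genes was called by limma in COMB against CTL, and none of these 15 had an unadjusted p under 0.05, where 35.7% of all genes did. The lid values ran from -0.19 for Psmd12 to 0.16 for Psmd6, around a median of 0.08. Psmd14, the deubiquitinase that removes the ubiquitin chain before degradation, was at 1173 ± 89.7 (SD, n = 3 pools) in CTL and 1052 ± 44.5 in COMB (log2 fold change -0.16, 95% interval -0.36 to 0.05). The chaperones comprise Psmg1 to Psmg4, which assemble the core, and Psmd5, Psmd9 and Psmd10, which assemble the base. Their values ran from -0.02 for Psmd10 to 0.44 for Psmg3, around a median of 0.17. Psmg3 was at 121 ± 19.7 in CTL and 171 ± 63.7 in COMB, where COMB-c stood at 243 and COMB-a lay within the CTL range (95% interval of the log2 fold change -0.02 to 0.90). Of the 2 genes that only share the prefix, Psmc3ip, a meiotic recombination factor that binds Psmc3, had a log2 fold change of 0.07, and Psme3ip1, a binding partner of Psme3, one of 0.21. Neither was called (adjusted p = 0.722 and 0.118).

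**Figure D4:**
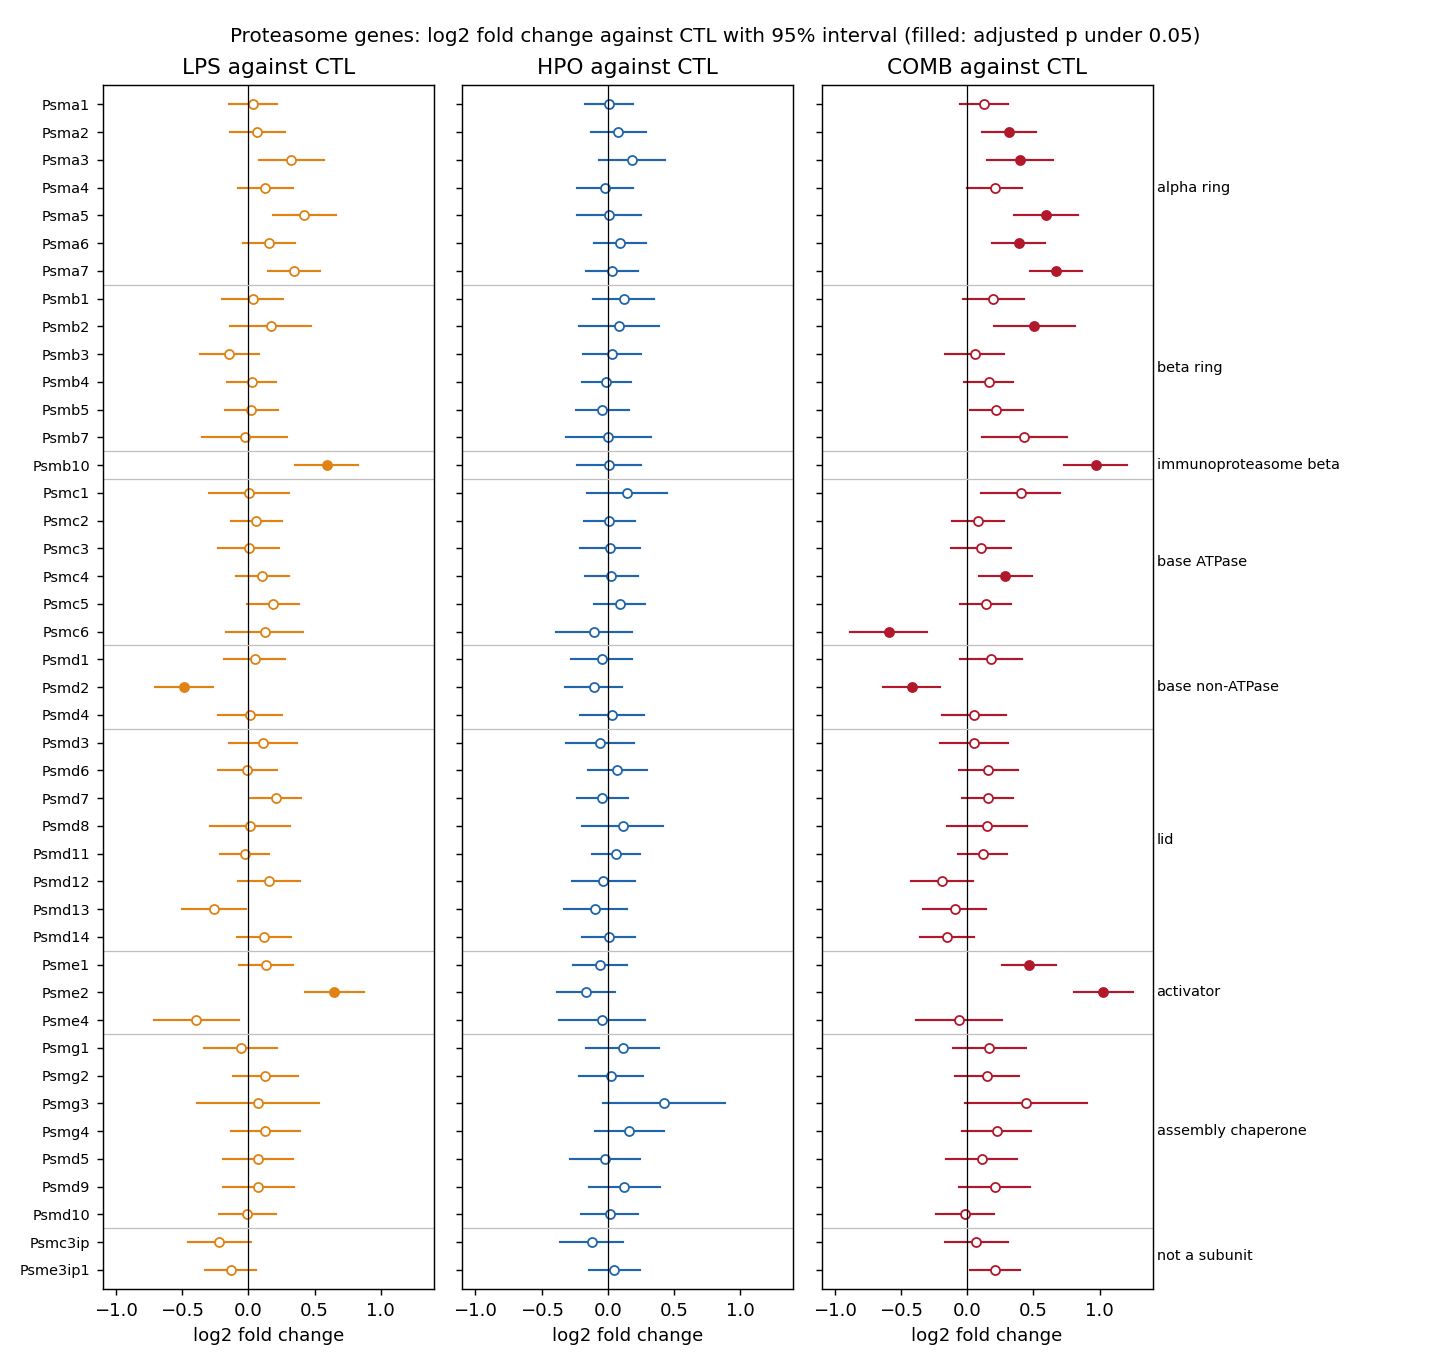
Log2 fold change (x axis) of each of the 43 genes in LPS, HPO and COMB against CTL, with its 95% interval from limma, grouped by place in the proteasome; filled points have an adjusted p under 0.05. Filled points number 3 for LPS, 0 for HPO and 12 for COMB, and the 3 comparisons share the CTL pools.

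With LPS alone, the interferon-inducible genes Psme2 and Psmb10 rose and the scaffold gene Psmd2 fell. These were the 2 members called higher and the 1 called lower in LPS against CTL, where 1.24% of all genes were called higher and 1.54% lower. The rises were 56.8% for Psme2 (log2 fold change 0.65, SE 0.10, adjusted p = 0.0106) and 50.6% for Psmb10 (log2 fold change 0.59, SE 0.11, adjusted p = 0.0221), and Psmd2 fell by 28.5% (log2 fold change -0.48, SE 0.10, adjusted p = 0.0329). For each of the 3 genes, the pools of LPS and CTL did not overlap. The same held for members that were not called, among them Psma6, Psmc5 and Psmd13, and the share over all genes was not counted. The median over the 43 members was 0.07, and that over all genes -0.02. Psma5 (0.42, adjusted p = 0.0769) and Psma7 (0.35, adjusted p = 0.0776) had all LPS pools above all CTL pools without being called. Psme4 had its LPS pools below its CTL pools, with values of -0.39, -0.55 and -0.37 in its 3 probe sets, of which the lowest adjusted p was 0.124. Leaving out CTL-c or LPS-a ended the call on Psme2 (adjusted p 0.0566 to 0.0741), leaving out any pool but CTL-a that on Psmb10 (0.0578 to 0.102), and leaving out any 1 of the 6 pools that on Psmd2 (0.0506 to 0.137), so that the number of members called ran from 0 without CTL-c or LPS-a to 2 without CTL-a.

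Hypoxia alone gave no call on any member in limma. In HPO against CTL, 0.0311% of all genes were called higher and 0% lower, and 0 of the 43 members had an unadjusted limma p under 0.05, where 8.78% of all genes did. The methods' t-test gave 1 member at this level, Psma3. The median log2 fold change was 0.02 as deposited and -0.03 with arrays centred on their medians, so that no direction can be given. The interval for Psme2 ran from -0.39 to 0.06, for Psmb10 from -0.23 to 0.25, for Psma7 from -0.16 to 0.23 and for Psmd2 from -0.32 to 0.11. The highest log2 fold change was that of the chaperone Psmg3, at 162 ± 16.2 in HPO. All HPO pools lay above all CTL pools of Psmg3, but the test was not passed (log2 fold change 0.42, SE 0.21, adjusted p = 0.575). The HPO pools of Psma3 also lay above its CTL pools, and those of Psmd2 lay below, and neither gene was called by limma.

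COMB was also set against each single exposure. In COMB against LPS, 5 members were called higher and 1 lower, where 8.64% of all genes were called higher and 5.04% lower, and the median log2 fold change was 0.15 over the members and 0.00 over all genes. The higher ones were Psme2 (0.38, adjusted p = 0.0325), Psmb10 (0.38, 0.044), Psme1 (0.33, 0.0389), Psma7 (0.33, 0.0352) and Psme3ip1 (0.34, 0.0262), and the lower one was Psmc6 (log2 fold change -0.72, SE 0.13, adjusted p = 0.00567). With the mean of its probe sets Psme1 was at 0.08 (adjusted p = 0.601), and the other probe sets of Psmc6 were at -0.42 (adjusted p = 0.0375) and 0.03 (0.884). Centring the arrays shifts every gene by -0.08 here, which left 0 members higher and 3 lower (Psmc6, Psmd12 and Psmd14), with Psme2 at 0.30 (adjusted p = 0.08). Leaving out any 1 of LPS-a, LPS-b, LPS-c, COMB-b and COMB-c also ended the calls on Psme2, Psmb10, Psme1 and Psma7 (adjusted p 0.072 to 0.145) and left 1 member called, Psmc6, whereas 9 were called without COMB-a.

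In COMB against HPO, 6 members were called higher and 1 lower, where 9.18% of all genes were called higher and 9.36% lower, and the medians were 0.12 over the members and -0.02 over all genes. Psme2 rose by 129% (log2 fold change 1.19, SE 0.10, adjusted p = 4.54e-05) and Psmb10 by 94.5% (log2 fold change 0.96, SE 0.11, adjusted p = 2.59e-04). Psma7 (0.64), Psma5 (0.59), Psme1 (0.52) and Psma6 (0.30) were the other higher genes, with limma adjusted p from 7.87e-04 for Psma7 to 0.0445 for Psma6. Psmc6 was the lower one (log2 fold change -0.49, SE 0.13, adjusted p = 0.0264). Psmd2 was lower without passing the test (log2 fold change -0.31, adjusted p = 0.053). The call on Psma6 was lost without HPO-a, HPO-b, COMB-b or COMB-c (adjusted p 0.0804 to 0.147) and with centred arrays (0.0759). That on Psmc6 was lost without HPO-b or COMB-c (0.098 to 0.0989), and that on Psme1 with the mean of its probe sets (0.14, adjusted p = 0.322). The other probe sets of Psmc6 were at -0.15 (adjusted p = 0.449) and -0.25 (0.207).

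The interaction asks whether hypoxia changed a gene differently in rats given LPS than in rats without it, as the log2 difference of COMB from LPS less that of HPO from CTL. It was called for 0 members by limma, where 0.156% of all genes were called higher and 0.0233% lower. The median was 0.10 over the members and 0.01 over all genes. At an unadjusted p under 0.05 there were 7 members (16.3%), near the 13.6% of all genes. Psme2 had the lowest adjusted p (log2 interaction 0.54, SE 0.14, adjusted p = 0.151), followed by Psmc6 (-0.61, SE 0.19, 0.201) and Psme1 (0.39, SE 0.13, 0.252). Psma7, Psmb10, Psmc3ip and Psme3ip1 were the others, with values between 0.29 and 0.41. Without COMB-a, 1 member was called, Psme2 (0.63, adjusted p = 0.0399), and with weights for the arrays 5 were (Psme1, Psme2, Psmb7, Psmb10 and Psme3ip1).

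The pools of a group differed in step across the members. CTL-a had the highest CTL intensity in 37 of the 43 genes and CTL-b the lowest in 36, where the shares over all genes were 46.8% and 46.2%. Among HPO pools, HPO-c was highest in 37 members (55.4% of all genes). Among COMB pools, COMB-c was highest in 29 members (31.9% of all genes), including Psme2, Psme1, Psmb10, Psma7 and Psma5, and it was lowest for Psmc6 and Psmd2. The median level of the alpha ring relative to the CTL mean was 0.31, 0.25 and 0.40 in the COMB pools, that of the beta ring was 0.10, 0.19 and 0.30, and that of the lid was 0.02, 0.03 and 0.08. The median over Psmb10, Psme1 and Psme2 was 0.84, 0.92 and 1.14. In the same COMB pools the recruited monocyte markers summed to 5972, 5010 and 6486, and the members' median was 0.10, 0.13 and 0.24. The alveolar macrophage markers summed there to 17812, 16280 and 16201, the airway epithelium markers to 27877, 24180 and 21283, the neutrophil markers to 5052, 9606 and 3759 and the T and NK cell markers to 887, 6869 and 5800. In CTL, the alveolar macrophage markers (19620, 18042 and 18680) and the monocyte markers (4919, 4123 and 4284) were highest in CTL-a and lowest in CTL-b. The members' median had the same order there (0.10, -0.11 and -0.0028). In COMB neither list followed the order of that median. In HPO (median 0.0058, -0.035 and 0.12) the macrophage markers did (19020, 18930 and 19060), and the monocyte markers ran in reverse (5001, 5088 and 4467). In LPS (median 0.12, 0.068 and 0.03) neither the macrophage markers (20380, 21530 and 19920) nor the monocyte markers (5160, 5398 and 3911) did. The CTL sums of neutrophil markers (554, 3409 and 521) and of T and NK cell markers (331, 2679 and 780) were highest in CTL-b. The part of these cell types in the differences between pools was not tested. With any 1 of CTL-b, CTL-c and COMB-c left out, 8 members were called in COMB against CTL, in place of 12.

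Other genes of the pathway were read from lists, against a share over all genes of 11.0% called higher and 11.0% lower in COMB against CTL. Of 13 proteasome-associated factors 2 were called higher in COMB than in CTL, with a median of 0.10. Psmf1, an inhibitor of the core, was at 404, 407 and 388 in CTL, 423, 472 and 479.6 in LPS, 425, 432 and 501 in HPO and 707, 737 and 653 in COMB (log2 fold change 0.80, SE 0.10, adjusted p = 2.00e-04). Adrm1, a ubiquitin receptor of the cap, was at 109 to 112 in CTL and 147, 166 and 162 in COMB (log2 fold change 0.51, SE 0.09, adjusted p = 0.00254). In both genes the COMB pools lay above all other pools. Pomp, which helps the core to mature, did not pass, at a log2 fold change of 0.03 (adjusted p = 0.877).

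Of 9 regulators of proteasome genes, 1 was higher and 1 lower, which is near the share over all genes, and their median was 0.02. Nfe2l2, the factor of the oxidative stress response, rose (log2 fold change 0.50, SE 0.13, adjusted p = 0.0197), from 538, 658 and 548 in CTL to 746, 892 and 828 in COMB. Ddi2, the protease that activates Nfe2l1, fell (log2 fold change -0.48, SE 0.11, adjusted p = 0.012). Nfe2l1, which drives proteasome genes when degradation is blocked, did not pass, at a log2 fold change of -0.24 (adjusted p = 0.132). None of the 12 ubiquitin and shuttle factors was called by limma in COMB against CTL, and the lowest adjusted p was 0.0654, for Ufd1. Of 8 interferon-gamma induced partners 6 were called higher in COMB than in CTL (median 0.92) and 2 in LPS than in CTL, where 11.0% and 1.24% of all genes were. Besides Psmb8 and Psmb9 they included Nlrc5, the activator of MHC class I genes (log2 fold change 1.48, SE 0.31, adjusted p = 0.00623), Irf1, an interferon-induced transcription factor (log2 fold change 1.44, SE 0.42, adjusted p = 0.0314), and Tap1, a subunit of the peptide transporter (log2 fold change 1.37, SE 0.24, adjusted p = 0.00229). B2m, the invariant chain of MHC class I, did not pass, at a log2 fold change of 0.07 (adjusted p = 0.607).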

How the data were processed

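Total RNA of BALF cells, pooled from several rats per array, was hybridised to 12 Affymetrix Rat Genome 230 2.0 arrays, 3 for each of 4 groups taken from the labels. The authors deposited 1 table with 31099 probe sets of linear intensity values, 1 column per array. How these intensities were summarised and normalized is not given in the sources used here. The array medians ran from 32.72 to 35.61, and the correlations between arrays of a group from 0.9764 to 0.9937. These values do not bound the differences between arrays that remain at the intensity of the members. Because the number of arrays is small and no counts exist, precision rests on the spread between pools.

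Gene names came from the platform annotation, in which 20832 probe sets name 1 gene, 436 several and 9831 none. The 57 control probe sets were left out, and a probe set had to exceed the 20th percentile of its array on at least 3 arrays, which left 25692. Values were analysed as log2(intensity + 1) with limma 3.58.1 in R 4.3.3 (4 group means, lmFit and eBayes, 8 residual and 3.935 prior degrees of freedom, two-sided), and p-values were adjusted over the 25692 probe sets. The 5 contrasts between groups and the interaction were taken from the same fit, so that comparisons share pools. The 43 symbols were matched to RefSeq for their position, and 39 have an entry in the promoter table of GRCr8. Psme3, Psmb6 and 1 probe set of Psma3 share probe sets with other genes and were not used. Of the 9 members with more than 1 tested probe set, 5 had probe sets of opposite sign in COMB against CTL. The script was tested on simulated data. Figures were drawn with matplotlib 3.10.9.

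The members and the lists were chosen with earlier results of these data known. Values in every pool are given for members called in COMB against CTL (at most 6 in each direction by size, and here also the remaining 4 that rose), for those called in LPS or HPO against CTL or in the interaction, and for Psme1, Psme2, Psme4 and Psmb10. Other members are given by counts and ranges or as examples. Alternatives were quantile normalization, centring of arrays, a pseudocount of 16, other filters, a trended and robust prior and array weights. Others were fits of the 2 groups alone, an unpaired t-test with equal variances and the methods' 2-fold criterion. Means over the probe sets of a gene, a block by rat numbers and leaving out each pool were also used. The study names a paired t-test for its arrays and Student's t-test in its general statistics.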

Additional observations from a re-analysis of the deposited data

How the results depend on the processing

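The number of members called depended on the settings. In COMB against CTL, where 12 were called, the unpaired t-test gave 2 after adjustment (Psme2 and Psme3ip1) and the 2-fold criterion 1 (Psme2). A fit of the 2 groups alone gave 8 (without Psma2, Psma3, Psmb2 and Psmc4, adjusted p 0.0802 to 0.104), and leaving out 1 pool gave 8 to 11. In LPS against CTL, where 3 were called, 5 were called with quantile normalization, with a pseudocount of 16 and with the trended and robust prior (Psma5 and Psma7 beside the 3), 8 with array weights, 12 by the unadjusted t-test, 0 by the adjusted t-test and 0 by the 2-fold criterion, and leaving out 1 pool gave 0 to 2. In HPO against CTL the unadjusted t-test called 1 (Psma3), in place of 0. In COMB against LPS, where 6 were called, 10 were called with quantile normalization, 3 with centred arrays (0 higher and 3 lower), 10 with array weights, 2 in a fit of the 2 groups alone (Psmc6 and Psme3ip1), 17 by the unadjusted t-test, 0 by the adjusted t-test and 0 by the 2-fold criterion, and leaving out 1 pool gave 1 to 9. The median log2 fold change of the members there was 0.065 with centred arrays, in place of 0.15. In COMB against HPO, where 7 were called, 11 were called with quantile normalization and 11 with the trended and robust prior, 17 with array weights, 15 by the unadjusted t-test, 0 by the adjusted t-test and 1 by the 2-fold criterion (Psme2), while 5 were called in a fit of the 2 groups alone (which ended the calls on Psma6 and Psmc6, adjusted p = 0.17 and 0.0913), and leaving out 1 pool gave 5 to 10. The interaction gave 5 with array weights and 0 to 1 when 1 pool was left out. Of 1032 values of the 12 named members under these alternatives, 884 kept their side of the threshold, 108 lost the call, 40 gained one and 0 were called in the opposite direction. The causes were not tested.

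With the replicate block, in which CTL and LPS pools were matched by rat numbers, 1 member was called in LPS against CTL (Psme2), in place of 3. Pools matched in this way had correlations of their deviations from the group means of 0.039, -0.0076 and -0.0016, and they came from different rats, so that the numbers do not pair the samples. COMB and HPO numbers could not be matched in the same way and had no such fit.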
